A study of Mus musculus with 4 samples.

Results

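Cytosolic ribosomal protein genes were followed in E14, a mouse embryonic stem cell line grown with serum and leukemia inhibitory factor over feeder fibroblasts that no longer divide. Untreated cells and cells given 0.5 mM valproic acid (VPA), an inhibitor of histone deacetylases, for 4 h were each measured on 2 Affymetrix arrays. Genes were taken by symbol (Rpl or Rps with a number, Rplp0 to Rplp2, and Rpsa) from probe sets with a single gene symbol, and the brightest probe set stood for each gene. This gave 61 genes of 19938 represented on the arrays, 23 named for the small subunit and 38 for the large one. Of 79 genes in textbook lists of the cytosolic ribosome, 54 were among them, and the other 7 (Rpl10l, Rpl32l, Rpl39l, Rpl3l, Rpl7l1, Rps27l and Rps4l) are paralogues or related copies. A further 16 listed genes, Rps27, Rpl11 and Rpl13a among them, lay only on probe sets that also carry other symbols and are not named with values here.

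Each ribosome has a small subunit, which reads the messenger RNA, and a large subunit, which joins amino acids and feeds the chain through an exit tunnel. One copy of most ribosomal proteins goes into each particle, and the nucleolus builds the subunits from these proteins and ribosomal RNA. Messenger RNAs of these proteins are among the most abundant in dividing cells, and their translation is controlled by mTOR through a stretch of pyrimidines at the start of the transcript. Myc proteins are known to raise transcription of ribosomal protein genes and of ribosome assembly factors. Many of the genes have processed copies elsewhere in the mouse genome, so a probe set can detect more than one locus. The platform annotation used here gives no locus, and the brightest probe set of a gene may be one that detects such a copy, so its signal need not come from the promoter shown.

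Promoters of the 3 small and 4 large subunit members with the smallest p for the VPA difference, leaving aside Rps14, are shown beside those of Rps15 and Rpl10, which had higher means with VPA, so that the start sites can be compared. Each window runs from 60 bases before to 19 bases after the annotated first base of the transcript, 5′ to 3′, from RefSeq on GRCm38.p6. Capitals mark the core of the GABP (ETS) motif, CGGAAG on the printed strand and CTTCCG on the other, and any run of at least 5 C or T letters that holds the first base. Rps19 has several annotated starts, of which the outermost is shown.
Rps19 (chr7:24884532-24884611, plus strand): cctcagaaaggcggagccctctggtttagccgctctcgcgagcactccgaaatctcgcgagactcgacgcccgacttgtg
Rps13 (chr7:116334171-116334250, minus strand): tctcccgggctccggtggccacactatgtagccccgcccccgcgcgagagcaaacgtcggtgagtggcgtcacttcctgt
Rps15a (chr7:118116128-118116207, minus strand): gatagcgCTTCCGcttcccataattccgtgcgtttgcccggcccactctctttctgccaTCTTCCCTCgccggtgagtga
Rpl14 (chr9:120571457-120571536, plus strand): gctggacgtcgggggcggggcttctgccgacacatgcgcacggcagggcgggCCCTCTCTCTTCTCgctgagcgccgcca
Rpl41 (chr10:128549149-128549228, minus strand): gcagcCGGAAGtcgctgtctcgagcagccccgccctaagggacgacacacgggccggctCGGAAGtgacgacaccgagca
Rpl37a (chr1:72711200-72711279, plus strand): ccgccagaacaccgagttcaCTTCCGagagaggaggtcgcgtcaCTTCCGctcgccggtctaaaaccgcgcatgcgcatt
Rpl7a (chr2:26910747-26910826, plus strand): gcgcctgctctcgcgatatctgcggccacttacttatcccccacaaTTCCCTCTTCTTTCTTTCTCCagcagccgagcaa
Rps15 (chr10:80292371-80292450, plus strand): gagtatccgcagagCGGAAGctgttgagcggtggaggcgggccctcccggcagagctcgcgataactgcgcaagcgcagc
Rpl10 (chrX:74270756-74270835, plus strand): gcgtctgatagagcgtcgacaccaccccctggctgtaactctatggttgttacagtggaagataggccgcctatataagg
The windows of Rpl14, Rpl7a and Rps15a hold a pyrimidine run at the annotated start, and those of Rps19, Rps13, Rpl41, Rpl37a, Rps15 and Rpl10 do not. Rps15, with a higher mean, has the CGGAAG letters in its window on either strand, as do Rps15a, Rpl41 and Rpl37a, with lower means, while the printed windows of Rps19, Rps13, Rpl14, Rpl7a and Rpl10 lack them.

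Over the full windows of the RefSeq table (250 bases before the start and 50 from it on), 43 of the textbook members had 50 promoters. CGGAAG was found on either strand in 33 of the 50 (66% against 16.9% of all 32851 promoters), and the GC box GGGCGG in 30 (60% against 35.7%). The E-box CACGTG, which Myc proteins bind, was in 7 (14% against 7.15%) and ATGGCGGC, the core bound by YY1, in 5 (10% against 2.24%). TATAAA was in 5 (10% against 13.6%). A first base C followed by at least 4 further C or T letters, the form of the pyrimidine start, was in 9 (18% against 2.51%). Both strands were searched for all 5 motifs, and a GC box can overlap an adjoining GABP match by the letters CGG. These are letter matches at annotated starts and not sites shown to be bound. The pyrimidine form was looked for at the annotated first base only. Whether transcripts start at that base in these cells was not tested, so a gene without a match may still have such a start.

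Most ribosomal protein genes had a slightly lower signal after VPA, and no member changed past the threshold. The mean was lower with VPA for 51 of 61 members (46.2% of represented genes) and higher for 10. Both VPA arrays lay below both untreated arrays for 34 members (18.1% of represented genes), and both lay above for 0 (24.1% of represented genes). The median log2 difference, VPA minus untreated, was −0.11 over the members, which is 92.5% of the untreated signal, and 0.015 over all represented genes. The differences ran from −0.58 for Rps19 to 0.15 for Rps15, and 48 of 61 were smaller than 0.2 in size. With limma's moderated test and Benjamini-Hochberg adjustment over all 35556 probe sets, 0 members were called (0% of all probe sets), the smallest adjusted p being 0.472. At an unadjusted p under 0.05, 4 members were lower (2.71% of represented genes) and 0 higher (5.9%). The count of 4 was 1, Rps19, with the replicate number as a block, without untreated replicate 2 and without VPA replicate 2, it was 2, Rps19 and Rpl29, without VPA replicate 1, and it was 7 with trend and robust moderation. The share of represented genes past this level is given for the main fit only, so the counts under the alternatives have no share beside them. In bulk RNA, fewer cells of a type and less RNA per cell cannot be told apart. The normalized signals show a share of the RNA and not an amount per cell.

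**Figure D1:**
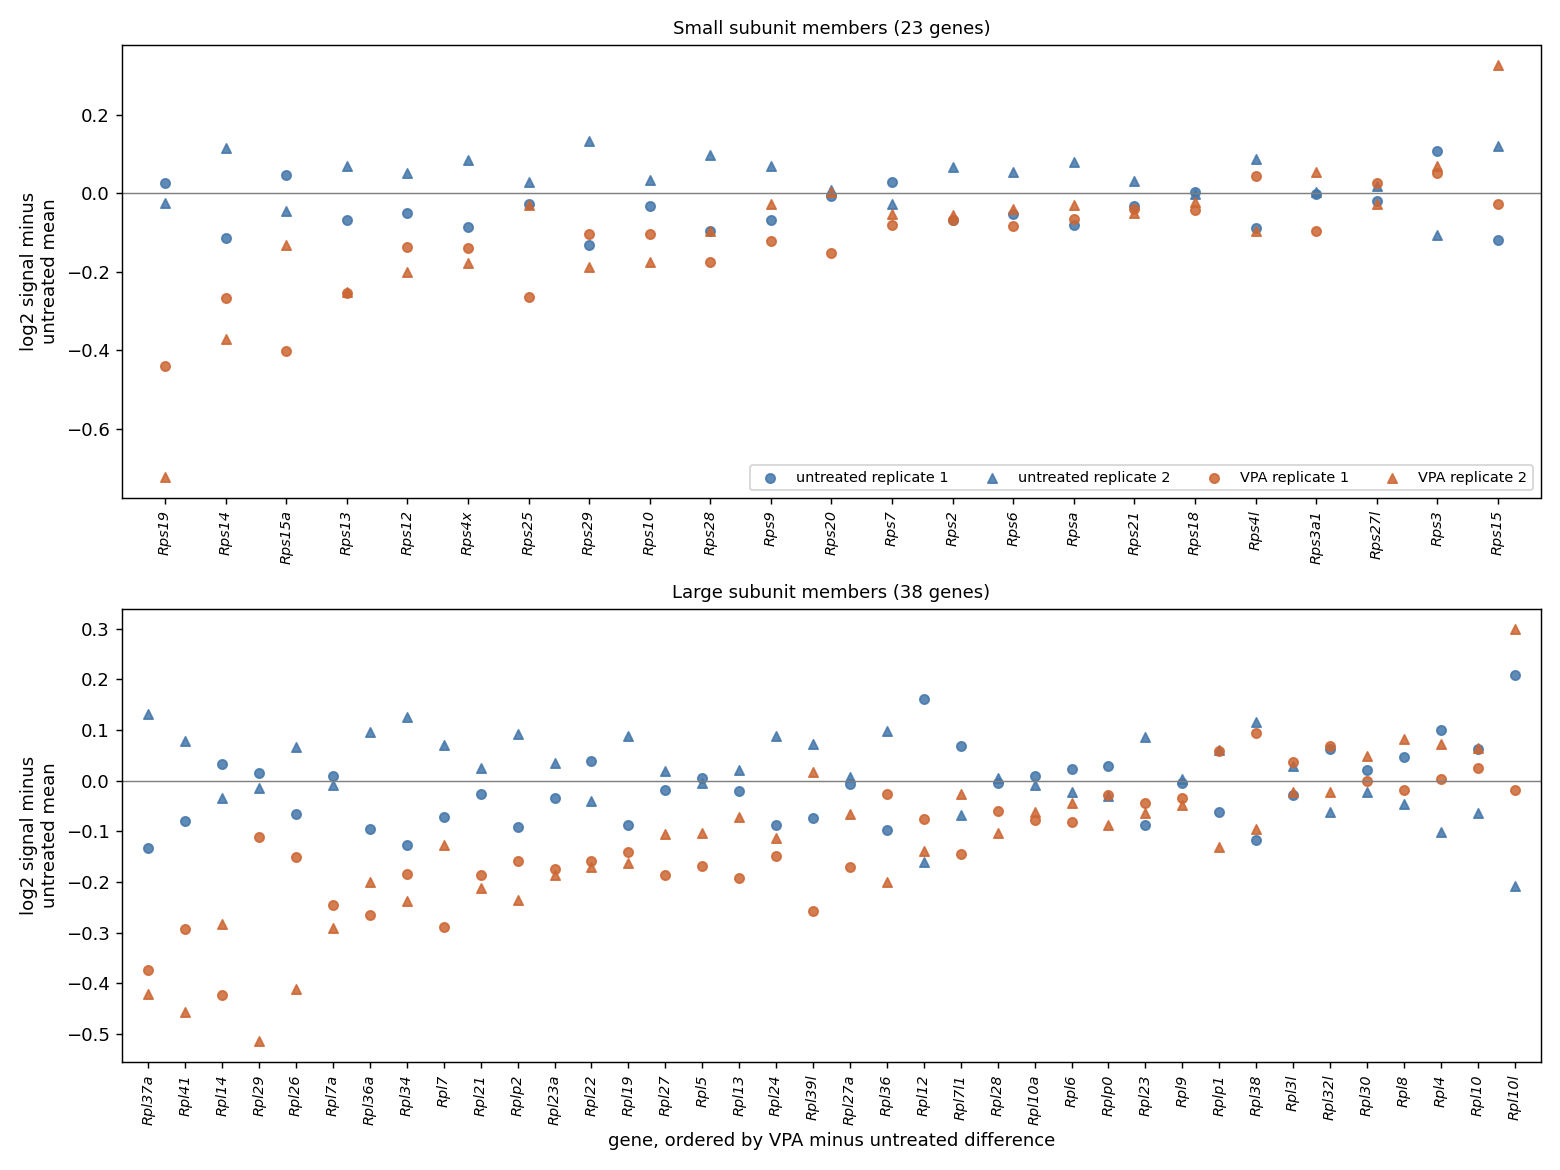
Log2 signal of each member in each array minus the mean of the 2 untreated arrays (y axis), with genes ordered by their VPA difference (x axis), small subunit above and large subunit below. Blue marks are untreated and orange marks VPA arrays, circles replicate 1 and triangles replicate 2, and the orange marks lie below both blue ones for 34 of the 61 genes.

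The arrays also differed within a group. Untreated replicate 2 held the highest signal of the 4 arrays for 36 of 61 members, a count without the share of represented genes beside it. Its median difference from untreated replicate 1 was 0.058 over members and 0.0034 over all represented genes. The VPA arrays differed by a median of 0.0041. The median difference between a VPA and an untreated array was −0.084 and −0.069 against untreated replicate 1, and −0.15 and −0.11 against untreated replicate 2. Between 45 and 50 of 61 members were lower in each of these pairs, while the medians over all represented genes lay between 0.0017 and 0.026. Without untreated replicate 2, 51 members still had a lower mean (45.0% of represented genes), with a median of −0.077 over members. The part of the replicate difference in the result was not tested.

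**Figure D2:**
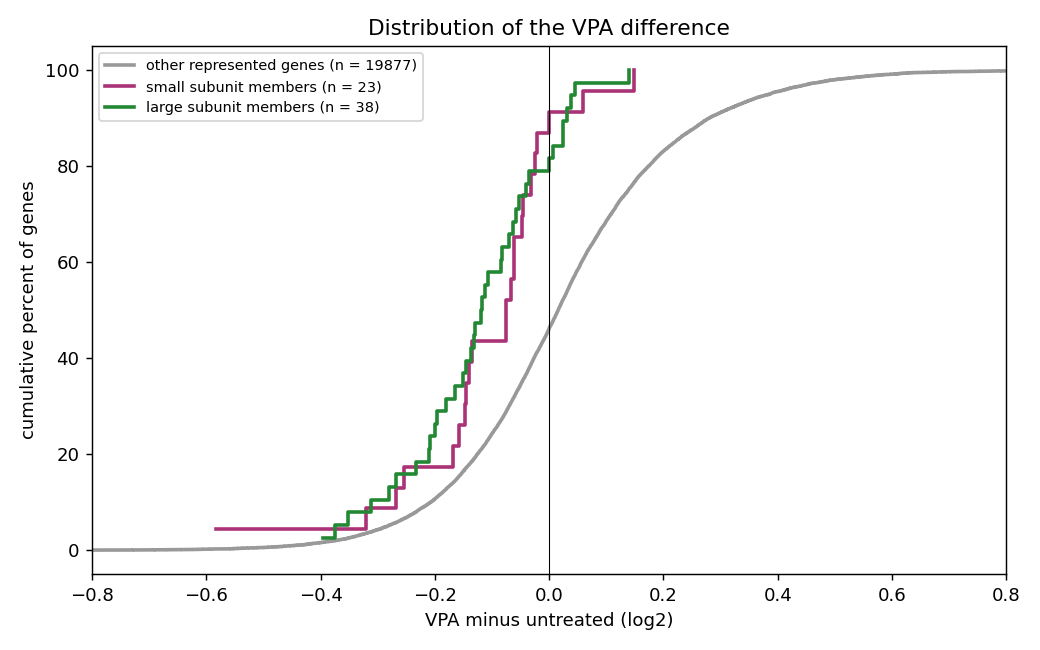
Cumulative percent of genes (y axis) against the VPA minus untreated log2 difference (x axis) for 23 small subunit members, 38 large subunit members and all other represented genes. Both member curves lie left of the grey one, with medians of −0.075 and −0.12 against 0.015 over all represented genes.

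In the small subunit, 21 of 23 members had a lower mean (46.2% of represented genes). Both VPA arrays lay below both untreated arrays for 11 (18.1% of represented genes). The median difference was −0.075. This median was −0.038 without untreated replicate 2, −0.13 without untreated replicate 1 and −0.15 over the mean of all probe sets of a gene. Rps19, needed for maturation of the small subunit's RNA and mutated in the human Diamond-Blackfan anaemia, showed the largest difference. It rested on 1 single-symbol probe set, at the 86.4th percentile of signal against a median of 97.9 over members. Its signal was 7.99 and 7.94 in untreated replicates 1 and 2, and 7.53 and 7.24 in VPA replicates 1 and 2. The groups did not overlap, and VPA replicate 2 was the lowest. The difference was −0.58 ± 0.14 (SE), 66.8% of the untreated signal, at an unadjusted p of 0.0085 and an adjusted p of 0.472 with limma.

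Rps14, a protein of the small subunit's platform whose loss is tied to the human 5q- syndrome, came next by p. It stood at 10.61 and 10.84 in untreated cells and at 10.46 and 10.35 with VPA. The groups were apart by less than the distance between the untreated arrays, and the difference was −0.32 ± 0.13 (SE). Rps13 was 8.55 and 8.69 in untreated cells and 8.36 and 8.37 with VPA, a difference of −0.25 ± 0.11. Rps15a was 7.96 and 7.87 untreated and 7.51 and 7.78 with VPA, so that VPA replicate 1 alone was far down. Its difference was −0.27 ± 0.14.

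Rps12 and the X-linked Rps4x were lower by smaller amounts on bright probe sets. Rps12 was 11.01 and 11.11 untreated and 10.93 and 10.86 with VPA, a difference of −0.17 ± 0.11 (SE). All of its 14 single-symbol probe sets gave lower means, between −0.26 and −0.16, although several of them returned the same values. Rps4x was 11.05 and 11.22 untreated and 11.00 and 10.96 with VPA, a difference of −0.16 ± 0.12, and its 5 probe sets ran from −0.18 to −0.15. For both genes the VPA arrays lay below the untreated ones without overlap.

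Other small subunit members had smaller differences. Rps10 (−0.14), Rps7 (−0.067), Rps21 (−0.045) and Rps18 (−0.032) had both VPA arrays lowest. Rps25, Rps28, Rps29, Rps9 and Rps20 lay between −0.15 and −0.075. Each had overlap except Rps25, whose VPA replicate 2 reached 10.643 against 10.644 in untreated replicate 1. The dimmer probe sets of Rps21 and Rps9 each gave −0.29, with both VPA arrays below both untreated arrays. Rps6, the substrate of S6 kinase, was 12.72 and 12.83 untreated and 12.69 and 12.74 with VPA, a difference of −0.061 ± 0.11 (SE), and its groups overlapped. Rps2, which lines the entry path of the messenger RNA, differed by −0.062 ± 0.11 on the brightest probe set, from 12.75 and 12.88 to 12.75 and 12.76, whereas its other probe sets were higher by up to 0.083. Rpsa, also known as the laminin receptor precursor, differed by −0.048, and its 5 probe sets ran from −0.28 to −0.048.

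The exceptions in the small subunit were Rps15 and Rps3. Rps15, which sits in the head of the subunit near the decoding site, was 10.46 and 10.70 untreated and 10.56 and 10.91 with VPA. Its groups overlapped, replicate 2 was higher than replicate 1 in both, and the difference of 0.15 ± 0.17 (SE) was within that spread. Rps3, at the messenger RNA entry, was 11.18 and 10.97 untreated and 11.13 and 11.14 with VPA, a difference of 0.060 ± 0.12. Rps3a1 (−0.021) and Rps27l (−0.00074) were about level.

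In the large subunit, 30 of 38 members had a lower mean (46.2% of represented genes). For 23, both VPA arrays lay below both untreated arrays (18.1% of represented genes). The median difference was −0.12. The 3 members with an unadjusted p under 0.05 in limma were Rpl14, Rpl41 and Rpl37a. Rpl14 and Rpl37a each had 1 single-symbol probe set, and the 3 of Rpl41 returned the same values. Rpl14 was 7.94 and 7.87 in untreated cells and 7.48 and 7.62 with VPA, a difference of −0.35 ± 0.11 (SE, unadjusted p = 0.028 and adjusted p = 0.504 in limma). Rpl41, the shortest protein of the ribosome, was 10.97 and 11.12 untreated and 10.75 and 10.59 with VPA, a difference of −0.37 ± 0.13 (adjusted p = 0.51 in limma). Rpl37a, a zinc-binding protein, was 9.32 and 9.59 untreated and 9.08 and 9.03 with VPA, a difference of −0.40 ± 0.13 (adjusted p = 0.51 in limma). The groups of all 3 were apart, and none of the 3 kept an unadjusted p under 0.05 with the replicate block, without untreated replicate 2 or without either VPA replicate.

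Rpl7a had tight replicates, at 9.75 and 9.73 untreated and 9.50 and 9.45 with VPA. Its difference was −0.27 ± 0.10 (SE), and its 3 probe sets gave between −0.57 and −0.13. Rpl26, which lies near the exit of the tunnel and in human cells also binds the p53 messenger RNA, was 7.31 and 7.44 untreated and 7.23 and 6.97 with VPA, a difference of −0.28 ± 0.14. Rpl36a was 10.30 and 10.49 untreated and 10.13 and 10.20 with VPA, a difference of −0.23 ± 0.12. The VPA arrays were the lower ones for each of these genes.

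A second tier of large subunit genes was lower by about 0.1 to 0.3 without overlap of the groups. It held Rpl29 (−0.31), Rpl34 (−0.21, at a low signal near 5), Rpl7 (−0.21), Rpl21 (−0.20), Rpl23a (−0.18), Rpl22 (−0.16), Rpl19 (−0.15), Rpl27 (−0.14), Rpl13 (−0.13), Rpl24 (−0.13) and Rpl27a (−0.12). Rpl5, which with Rpl11 and the 5S RNA can bind and inhibit Mdm2, was 11.76 and 11.75 untreated and 11.59 and 11.65 with VPA. Its difference was −0.14 ± 0.11 (SE), and all 5 probe sets were lower, between −0.27 and −0.14. Rpl28 (−0.082), Rpl10a (−0.070), Rpl6 (−0.062) and Rpl9 (−0.041) had smaller differences with the groups still apart, while Rpl36 (−0.11), Rpl12 (−0.11) and Rpl23 (−0.053) overlapped.

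The acidic stalk, which recruits translation factors to the large subunit, held members with unlike values. Rplp2 was 7.50 and 7.69 untreated and 7.44 and 7.36 with VPA, a difference of −0.20 ± 0.12 (SE) without overlap. Rplp0, often used as a reference gene in PCR, was 11.87 and 11.81 untreated and 11.81 and 11.75 with VPA, a difference of −0.058 ± 0.11. Rplp1 differed by −0.035 ± 0.13, and the groups of both overlapped.

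Large subunit members that were level or had higher means included Rpl10, which joins the subunit late and whose gene is X-linked, and Rpl4, which lines the tunnel. Rpl10 was 12.57 and 12.44 untreated and 12.53 and 12.57 with VPA, a difference of 0.045 ± 0.11 (SE), and its 6 probe sets were all higher, by 0.040 to 0.051. Rpl4 was 12.48 and 12.28 untreated and 12.39 and 12.46 with VPA, a difference of 0.038 ± 0.12. Rpl8, near the peptidyl transferase centre, differed by 0.031 and Rpl30 by 0.024. Rpl38, which in the mouse is needed for translation of Hox messenger RNAs, stood at 10.83 in both groups, a difference of 0.00044 ± 0.14. All 5 had overlapping groups.

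The 7 paralogues differed in both directions. Of these, 4 had a lower and 3 a higher mean, their median difference was −0.00074, and the groups overlapped for all 7. Rps27l, a copy of Rps27 induced by p53, was 8.99 and 9.03 untreated and 9.04 and 8.98 with VPA. Rpl10l, an autosomal copy of Rpl10 used in spermatogenesis, was 8.75 and 8.34 untreated and 8.53 and 8.84 with VPA, a difference of 0.14 ± 0.20 (SE). Rpl39l, best known from testis, was 6.11 and 6.26 untreated and 5.93 and 6.20 with VPA, a difference of −0.12 ± 0.14.

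Rpl3l, the striated muscle form of Rpl3, stayed at a signal of 3.08 and 3.14 untreated and 3.15 and 3.09 with VPA, at the 34.7th percentile of all probe sets. Rpl7l1 was 9.39 and 9.25 untreated and 9.18 and 9.30 with VPA, and Rpl32l 6.46 and 6.34 against 6.47 and 6.38. Rps4l was 10.13 and 10.30 untreated and 10.26 and 10.12 with VPA. Whether these probe sets also detect the main genes was not tested. Restricted to the 54 textbook members, the median was −0.13, with 47 lower and 7 higher. Whether paralogues and main genes differ in response was not tested.

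The subunits were compared by their medians. The small subunit median lay 0.044 above that of the large subunit, at −0.075 and −0.12. The mean small subunit signal minus the mean large subunit signal was 0.675 and 0.729 in untreated replicates 1 and 2, and 0.695 and 0.729 in the VPA arrays. On this measure both VPA values lay within the range of the untreated ones. For the contrast of medians, the SD between arrays of a group was 0.027, against the contrast of 0.044. Whether the subunits shifted against each other was not tested. Over the mean of all probe sets of a gene, the order turned, with the small subunit 0.029 below the large one.

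Differences were larger on dimmer probe sets. The 30 members below the median member signal had a median difference of −0.15 and the 31 brighter ones −0.063, and the share with a lower mean was 86.7% and 80.6%. Of the members, 51 lay above the 90th percentile of probe set signal, where the other 1785 represented genes had a median of 0.055 and 37.9% had a lower mean. Among those bright genes, both VPA arrays were below both untreated arrays for 16.8%. Their median deviation from the mean of the 4 arrays was 0.035 and −0.086 in untreated replicates 1 and 2. It was 0.013 and 0.046 in VPA replicates 1 and 2, so only untreated replicate 2 lay low for the bright genes. The part of this array in their median difference was not tested. Very bright probe sets can be compressed on arrays, and the part of this in the sizes was not tested.

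**Figure D3:**
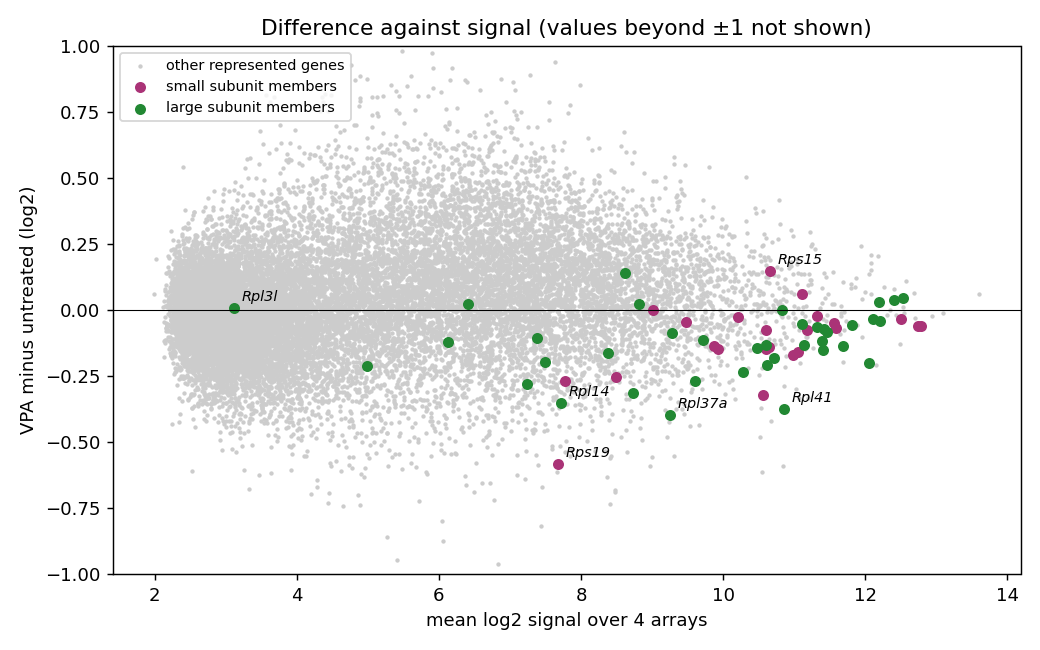
VPA minus untreated log2 difference (y axis) against the mean log2 signal over 4 arrays (x axis) for small and large subunit members and all other represented genes (grey). Most members sit at the bright end and just below 0, with Rps19 the lowest at −0.58 and Rps15 the highest at 0.15.

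Other probe sets of the same genes also had mostly lower means. Of 156 single-symbol probe sets beyond those that stand for the genes, 144 had a lower mean (48.2% of all probe sets). The other 12 had a higher mean, and the median was −0.13. All 217 single-symbol probe sets of the members, with the 61 already counted, hold 205 different value patterns, since some returned the same values. Probe sets of 1 gene are not independent. Another 235 probe sets carried several symbols that include a textbook ribosomal protein gene. Of these, 206 had lower means (48.2% of all probe sets), and the median was −0.13. Both VPA arrays lay below both untreated arrays for 166 (18.7% of all probe sets). Both lay above for 16, against 7713 of all 35556 probe sets. At an unadjusted p under 0.05 in limma, 15 of the 235 were lower and 0 higher. Of all 35556 probe sets, 1220 were lower and 2049 higher at that level. Fau, which encodes a small subunit protein fused to a ubiquitin-like one and falls outside the symbol rule, was 9.91 and 10.09 untreated and 9.90 and 9.83 with VPA, a difference of −0.14 ± 0.12 (SE).

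Genes of other steps in building and running ribosomes had medians nearer 0. No gene in these lists was called, and whether the lists differ from the ribosomal proteins was not tested. Mitochondrial ribosomal protein genes, 77 taken by symbol after the other lists, had a median difference of 0.0001, with 38 lower and 39 higher. The exceptions by unadjusted p, named after their values were seen, were Mrpl54 (−0.46) and Mrps18b (−0.38).

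RNA polymerase I transcribes ribosomal RNA. Of its 15 measured genes, 10 had a lower and 5 a higher mean, with a median of −0.024. Ubtf, the factor that opens ribosomal DNA, was 9.03 and 8.98 untreated and 8.71 and 8.73 with VPA, a difference of −0.29 ± 0.10 (SE, unadjusted p = 0.041 and adjusted p = 0.529 in limma). Polr1e differed by 0.23 and Polr1d by −0.20. Rrn3, the initiation factor that responds to growth signals, was 10.57 and 10.13 untreated and 10.45 and 10.44 with VPA, with a difference of 0.099 ± 0.17.

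Assembly factors went both ways. The 44 genes of small subunit maturation had a median of 0.047, with 17 lower and 27 higher and none at an unadjusted p under 0.05. Among them Wdr43 differed by −0.25, Dhx37 by −0.26, Utp11 by 0.23 and fibrillarin (Fbl), the methylase of ribosomal RNA, by 0.14. The 54 genes of large subunit assembly had a median of −0.045, with 32 lower and 22 higher. For 13 of these 54, both VPA arrays lay below both untreated arrays (18.1% of represented genes), and for 1 both lay above (24.1%). In the list of small subunit maturation these counts were 4 and 7. Npm1 (nucleophosmin) was 11.14 and 11.34 untreated and 10.79 and 11.01 with VPA, a difference of −0.33 ± 0.14 (SE). Mrto4 differed by −0.31, Nhp2 by −0.21 and nucleolin (Ncl) by −0.14. Of 17 chaperones and importins of ribosomal proteins, 9 were lower and 8 higher, with Kpnb1 at −0.29 (unadjusted p = 0.048 in limma), Grwd1 at −0.27 and Heatr3 at 0.23.

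Translation factors lay around 0. The 36 initiation factors had a median of −0.012, with Eif5a at −0.33 ± 0.11 (SE, unadjusted p = 0.030 in limma), Eif4b at −0.28 and Eif2b2 at 0.24. The 12 elongation and release factors had a median of 0.034, with Eef2k at −0.25, Eef1b2 at −0.19 and Gspt2 at 0.20. Eef1a1 and Eef2, whose messenger RNAs start with the same pyrimidine stretch as those of ribosomal proteins, differed by 0.062 and −0.10. Of 18 genes that signal to ribosomal protein synthesis, 7 were lower and 11 higher, with a median of 0.016. Akt1s1, an inhibitor within the mTOR complex, was 6.91 and 6.75 untreated and 6.49 and 6.32 with VPA, a difference of −0.42 ± 0.13. Larp4 differed by −0.27, Maf1, a repressor of RNA polymerase III, by 0.21, Larp1, which binds the pyrimidine start, by −0.22 and Mtor by −0.032.

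**Figure D4:**
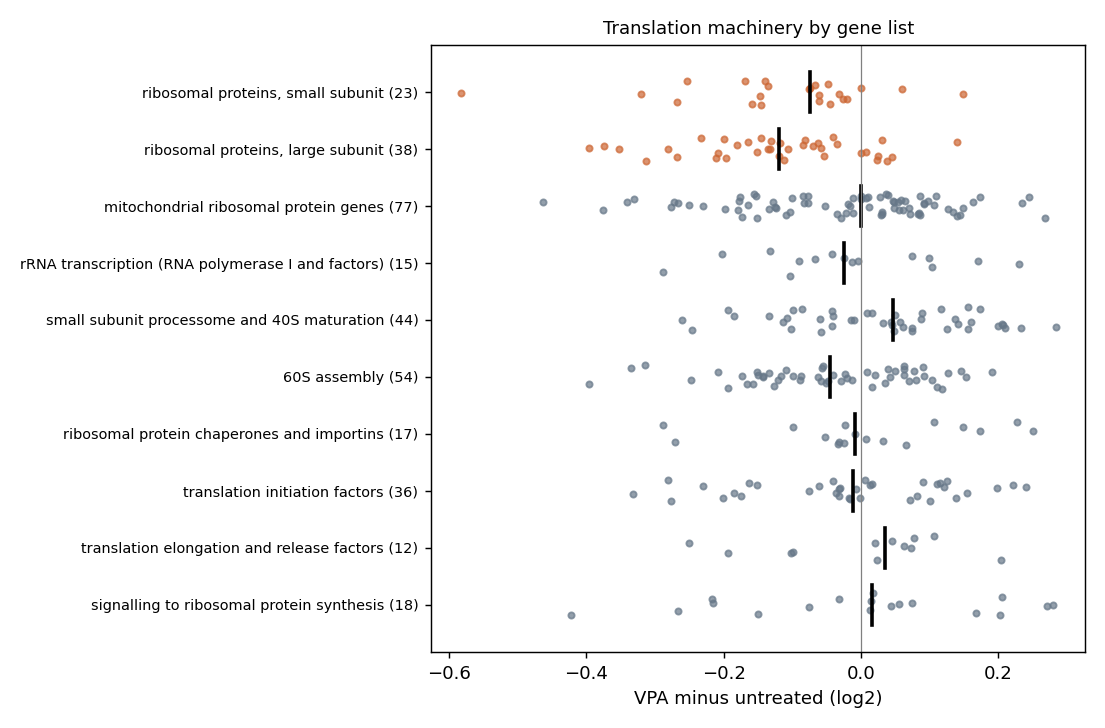
VPA minus untreated log2 difference (x axis) of each gene in 10 lists of the translation machinery (y axis, number of genes in brackets). Points are genes, black bars are medians, and orange marks the ribosomal proteins, whose medians of −0.075 and −0.12 are the lowest of the 10.

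Mycn and Myc both had a lower signal with VPA. Mycn was 8.83 and 8.81 untreated and 8.16 and 8.11 with VPA, a difference of −0.68 ± 0.10 (SE, unadjusted p = 0.0013 and adjusted p = 0.462 in limma). Myc was 7.35 and 7.70 untreated and 6.97 and 6.81 with VPA, a difference of −0.64 ± 0.16 (unadjusted p = 0.011 and adjusted p = 0.48 in limma). Zbtb7a (−0.48) and Sp1 (−0.29) were also lower at an unadjusted p under 0.05, and Tbpl1 (0.38), Mlx (0.34) and Mxi1 (0.31), the last an antagonist of Myc, were higher. The whole list of 21 had a median of 0.0019. Gabpa, which binds the CGGAAG letters shown in the promoters, differed by −0.15 ± 0.13. Any part of these factors in the ribosomal protein signals was not tested.

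Genes of the p53 response to ribosomal stress, 12 in number, had a median of 0.087, with 5 lower and 7 higher. Sesn1, a p53 target, was higher by 0.31 ± 0.11 (SE, unadjusted p = 0.032 in limma), Mdm2 differed by 0.15, Sesn2 by −0.20 and Bbc3 by −0.17.

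The cell type label was checked against markers. The mean signal of 15 stem cell markers was 10.05 and 9.96 in the untreated arrays and 9.83 and 9.91 in the VPA arrays, which lay below both untreated ones, as the ribosomal protein signals mostly did. The 30 fibroblast feeder markers had means between 5.36 and 5.45. Stem cell markers had a median difference of −0.11, with 11 lower and 4 higher. Both VPA arrays lay below both untreated arrays for 8 of 15 (18.1% of represented genes). Sall4 (−0.43), Nanog (−0.48), Utf1 (−0.33) and Lin28a (−0.34) were lower at an unadjusted p under 0.05 in limma (2.71% of represented genes). At that level 0 were higher (5.9%). Sox2 (0.20), Tdgf1 (0.12, with both VPA arrays above) and Dppa5a (0.11) had higher means. Feeder markers had a median of −0.070, with 20 lower and 10 higher, including Ccdc80 (−0.31), Sparc (−0.26) and Thy1 (0.31). The feeder mean was 5.39 and 5.45 in untreated and 5.36 and 5.37 in VPA arrays. The part of either marker set in the ribosomal protein difference was not tested.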

How the data were processed

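The authors deposited an RMA value on the log2 scale for each probe set and array. Per the submitters' processing notes, Affymetrix Expression Console 1.1 was used, in which RMA removes background, equalises the distributions and summarises probes. The set of arrays normalized jointly is not stated. Symbols came from the platform annotation, and gene identifiers of 21698 of 21789 single-symbol probe sets matched RefSeq (GRCm38.p6), which changed 0 symbols. The 4 arrays held 35556 probe sets, and their number limits the precision.

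The VPA and untreated arrays were compared over all probe sets in limma 3.58.1 (R 4.3.3; lmFit, then eBayes; 2 residual and 2.93 prior degrees of freedom), two-sided, with Benjamini-Hochberg adjustment at 0.05. The script was tested on simulated data. The labels do not say that replicates are separate cultures, so p-values cover only array-to-array spread, possibly technical. An exact permutation test of 2 against 2 cannot give a p below 0.333. Lists are described by counts and medians, without a test. Members and lists were chosen with earlier results of these data known. Genes named follow a rule on p, signal and direction. Other members are given to account for all, and a few further list genes were named after their values were seen. Same-numbered arrays deviated with a correlation of −0.097 over probe sets, so the numbers were not taken as pairs. Alternatives were a second quantile normalization, a filter on dim probe sets, trend and robust moderation, a replicate block, each array left out, the mean of all probe sets of a gene, and textbook members only.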

Additional observations from a re-analysis of the deposited data

How the results depend on the processing

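Of the 61 members, between 49 and 52 had a lower mean under each alternative that kept all of them, and 0 were called under any. The number lower at an unadjusted p under 0.05 in limma was 4, against 7 with trend and robust moderation and 1 with the replicate block. The share of represented genes past this level is given for the main fit only. These counts are therefore not read as a result about the members. No probe set was called at the adjusted threshold in the main fit, so the block had no call to change. The median over members ran from −0.13 to −0.077 with an array left out, the small subunit median from −0.13 (without untreated replicate 1) to −0.038 (without untreated replicate 2), the large subunit median from −0.14 to −0.087 and the subunit contrast from 0.0062 to 0.050. Over the mean of all probe sets the small subunit median was −0.15 and the contrast turned to −0.029. A second quantile normalization moved the median of all represented genes from 0.015 to −0.0042, and 51.1% of them then had a lower mean, against 50 of 61 members, of which 28 had both VPA arrays below both untreated ones (21% of genes). The number with every VPA array below every untreated array ran from 39 to 47 with an array left out, where 29.2% to 35.2% of genes did. Adding probe sets with several symbols, chosen after seeing the data, gave a median of −0.13.

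Signs turned in 43 of 1024 combinations of an alternative and a gene given a value here, over 114 genes. With the second quantile normalization this held for Rpl23 (0.019), Rpl30 (−0.016), Rpl32l (−0.053), Rps3a1 (0.0037) and Rps4l (0.0094), and with the mean of all probe sets of a gene for Heatr3 (−0.0091), Rpl23 (0.0066) and Rps2 (0.026). The other 35 turns came with an array left out. The filter on dim probe sets, trend and robust moderation and the replicate block leave a gene's difference as it is. No sign could turn under them, although the 1024 include them. Ranges over the arrays left out are in brackets. Without untreated replicate 2, the sign turned for Dppa5a (−0.017 to 0.24), Eef1a1 (−0.018 to 0.14), Gspt2 (−0.010 to 0.42), Rpl10 (−0.018 to 0.11), Rpl23 (−0.14 to 0.033), Rpl4 (−0.062 to 0.14), Rps2 (−0.13 to 0.0059), Rps3 (−0.048 to 0.17), Rpsa (−0.13 to 0.032) and Rrn3 (−0.12 to 0.31). Without VPA replicate 2, and also without untreated replicate 2, the sign turned for Mtor (−0.19 to 0.13), Rpl10l (−0.068 to 0.35), Rpl8 (−0.019 to 0.082), Rplp1 (−0.13 to 0.059), Rps27l (−0.027 to 0.025) and Rps4l (−0.11 to 0.062). Without VPA replicate 2, the sign turned for Rpl30 (−0.00049 to 0.049), Rps15 (−0.028 to 0.33) and Sox2 (−0.013 to 0.41). Without VPA replicate 1, the sign turned for Rpl39l (−0.26 to 0.018), Rps20 (−0.15 to 0.0035) and Rps3a1 (−0.095 to 0.054). Without VPA replicate 1, and also without untreated replicate 1, the sign turned for Rpl38 (−0.12 to 0.12) and Rpl3l (−0.022 to 0.036). Without untreated replicate 1, the sign turned for Rpl12 (−0.27 to 0.053). Without VPA replicate 1, and also without untreated replicate 2, the sign turned for Rpl32l (−0.039 to 0.086). The cause was not tested.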
